A study of Mus musculus with 3 samples.

Results

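The Hox genes of the 4 mouse clusters were examined in peak lists from the assay for transposase-accessible chromatin with sequencing (ATAC-seq), in which a transposase cuts open chromatin and a peak marks a stretch cut more often than its surroundings. The 38 genes were Hoxa2 to Hoxa7, Hoxa9, Hoxa10, Hoxa11 and Hoxa13, Hoxb1 to Hoxb9 and Hoxb13, Hoxc4 to Hoxc6 and Hoxc8 to Hoxc13, and Hoxd1, Hoxd3, Hoxd4 and Hoxd8 to Hoxd13, out of 21938 coding genes in the annotation. Peaks were taken from a window around each cluster, from its first to its last gene of this list plus 50 kb on either side. On mm10 the windows were chr6:52112417-52310880 for Hoxa, chr11:96144316-96418256 for Hoxb, chr15:102871103-103086852 for Hoxc and chr2:74618310-74815142 for Hoxd. They held 147 of 129843 peaks in SOX2-ON, 139 of 131520 in SOX2-OFF and 175 of 130348 in CEpiLC. Genes were taken by name and position and none by its measured value, though the set was chosen with earlier results of these data known.

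The 3 samples came from mouse embryonic stem cells of the HM1 line (strain 129), with 1 sample in each group and 50000 cells in each sample. All were collected at 72 h of differentiation with bFGF (10 ng/ml) and with LGK974 (5 µM), an inhibitor of WNT ligand secretion, with the GSK3 inhibitor CHIR99021, an activator of WNT signalling, added after 2 days. SOX2-ON and SOX2-OFF were made from Sox2-/- TetON cells, a clonal line without endogenous Sox2 that carries a doxycycline-inducible Sox2 transgene at the Hprt locus and the rtTA activator at Rosa26. SOX2-ON stayed on doxycycline (1 µg/ml) throughout and SOX2-OFF had it taken away, whereas CEpiLC, caudal epiblast-like cells, were wild-type at Sox2. SOX2-ON set against SOX2-OFF asks what differs with the transgene and with doxycycline, which change together, in a single line. The comparisons with CEpiLC also cross cell lines. With 1 sample in a group no difference below has a replicate check, and no test was made. In bulk material, fewer cells with an open site and less opening in each cell cannot be told apart.

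Hox genes encode homeodomain transcription factors that give cells their position along the head-to-tail axis. Within a cluster they lie in the order in which they are switched on, from the anterior genes at the 3′ end to the posterior genes at the 5′ end, and a paralog number is shared by the matching genes of different clusters. In pluripotent cells the clusters are held by Polycomb repressors, and WNT signalling, CDX factors and retinoic acid take part in opening them as the caudal epiblast forms. Below, numbers 1 to 4 are called anterior, 5 to 8 central and 9 to 13 posterior.

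Stretches from the windows are printed first because the differences between lists described below turn on them. All are from GRCm38.p6, the same assembly as mm10, on the plus strand from 5′ to 3′, at most 300 bases around the centre of the region. Capitals mark matches, on either strand, to the letters TTTATNG (CDX/HOX), TGATTNAT (PBX-HOX), TGACAG (MEIS), ATCAAAG (TCF/LEF), ACAANGG (SOX) or TCACACCT (T-box). A match is a description of the letters and not evidence of binding. The first stretch lies in an intron of Haglr, 2713 bp from the start of Hoxd1, in region chr2:74760104-74760429, which had a peak in SOX2-OFF and CEpiLC and none in SOX2-ON. The next 2 lie in an intron of Hoxd3 (region chr2:74740184-74741086) and in the intergenic 3′ flank of Hoxd (region chr2:74789286-74790852). Both regions had a peak in all 3 lists and ranked lower in SOX2-ON than in the other lists. The one after is intergenic, in chr15:103083477-103083979 beyond the 3′ end of Hoxc, with a peak in SOX2-ON alone. The last is intergenic, upstream of Mir10a and 1798 bp from the start of Hoxb4 in chr11:96316269-96316669, with a peak in CEpiLC alone. These 2 Hoxd regions of all 3 lists were chosen after their values were seen.
Hoxd, SOX2-OFF and CEpiLC: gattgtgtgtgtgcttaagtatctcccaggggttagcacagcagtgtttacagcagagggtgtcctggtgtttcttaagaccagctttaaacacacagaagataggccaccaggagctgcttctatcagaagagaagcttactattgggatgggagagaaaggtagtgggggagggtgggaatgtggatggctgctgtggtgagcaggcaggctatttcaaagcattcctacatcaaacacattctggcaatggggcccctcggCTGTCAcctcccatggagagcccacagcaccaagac
Hoxd, Hoxd3 intron: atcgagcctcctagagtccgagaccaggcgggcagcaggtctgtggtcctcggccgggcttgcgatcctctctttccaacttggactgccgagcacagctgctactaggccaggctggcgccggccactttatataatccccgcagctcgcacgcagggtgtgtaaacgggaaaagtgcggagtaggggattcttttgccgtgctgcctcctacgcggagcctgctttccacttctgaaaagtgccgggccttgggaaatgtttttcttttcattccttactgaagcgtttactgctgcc
Hoxd, 3′ flank: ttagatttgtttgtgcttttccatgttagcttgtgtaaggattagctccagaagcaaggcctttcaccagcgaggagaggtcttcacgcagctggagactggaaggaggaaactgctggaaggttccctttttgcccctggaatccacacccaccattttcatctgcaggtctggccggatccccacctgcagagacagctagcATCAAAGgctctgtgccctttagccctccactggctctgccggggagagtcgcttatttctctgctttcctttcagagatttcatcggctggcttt
Hoxc, SOX2-ON alone: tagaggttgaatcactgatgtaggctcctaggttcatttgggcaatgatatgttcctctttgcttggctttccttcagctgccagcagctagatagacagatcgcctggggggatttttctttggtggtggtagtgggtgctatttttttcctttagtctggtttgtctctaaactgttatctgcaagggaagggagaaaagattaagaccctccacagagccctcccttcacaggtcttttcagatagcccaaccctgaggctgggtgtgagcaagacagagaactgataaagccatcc
Hoxb, CEpiLC alone: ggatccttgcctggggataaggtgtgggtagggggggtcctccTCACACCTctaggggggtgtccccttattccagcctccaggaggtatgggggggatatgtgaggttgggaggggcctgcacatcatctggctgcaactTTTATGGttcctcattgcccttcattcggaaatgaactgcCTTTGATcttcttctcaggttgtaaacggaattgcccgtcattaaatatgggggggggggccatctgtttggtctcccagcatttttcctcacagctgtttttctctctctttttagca
The Haglr stretch held 1 MEIS match. The stretch open in CEpiLC alone held a T-box, a CDX/HOX and a TCF/LEF match, the stretch in the 3′ flank of Hoxd held 1 TCF/LEF match, and those of the Hoxd3 intron and of SOX2-ON alone held none.

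The promoters of 4 genes follow, the 2 with the highest and the 2 with the lowest mean promoter rank among the genes whose stretch could be printed. They are the 250 bases before the RefSeq start on the strand of the gene, with CpG dinucleotides in capitals. Of the 38 genes, 22 had a promoter in the RefSeq table used and 15 of these stretches overlapped no untranslated region and could be printed. Hoxd1 (chr2:74762730-74762979, plus strand) and Hoxa13 (chr6:52260881-52261130, minus strand) held 24 and 35 CpG, whereas Hoxd12 (chr2:74674763-74675012, plus strand) and Hoxa2 (chr6:52164832-52165081, minus strand) held 10 and 6.
Hoxd1: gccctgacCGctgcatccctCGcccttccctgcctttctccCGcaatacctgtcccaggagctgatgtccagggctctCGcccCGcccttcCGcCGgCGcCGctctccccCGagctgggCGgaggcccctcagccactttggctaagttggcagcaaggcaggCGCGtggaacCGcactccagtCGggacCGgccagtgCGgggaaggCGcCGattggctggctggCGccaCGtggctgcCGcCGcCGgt
Hoxa13: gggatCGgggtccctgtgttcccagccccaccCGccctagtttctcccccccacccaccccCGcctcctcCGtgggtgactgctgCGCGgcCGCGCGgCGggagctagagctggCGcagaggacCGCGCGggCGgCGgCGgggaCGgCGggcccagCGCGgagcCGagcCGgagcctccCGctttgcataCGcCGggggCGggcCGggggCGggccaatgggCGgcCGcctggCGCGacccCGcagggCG
Hoxd12: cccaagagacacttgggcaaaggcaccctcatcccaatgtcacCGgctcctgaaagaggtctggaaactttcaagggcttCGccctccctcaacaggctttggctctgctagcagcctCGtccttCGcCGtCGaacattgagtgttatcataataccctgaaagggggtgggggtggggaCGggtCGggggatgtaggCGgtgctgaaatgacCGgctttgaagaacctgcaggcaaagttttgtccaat
Hoxa2: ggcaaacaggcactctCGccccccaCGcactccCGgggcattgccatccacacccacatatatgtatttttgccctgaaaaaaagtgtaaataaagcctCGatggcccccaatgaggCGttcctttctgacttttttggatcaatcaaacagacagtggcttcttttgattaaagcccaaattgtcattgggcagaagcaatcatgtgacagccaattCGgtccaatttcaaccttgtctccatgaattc
GC content was 71.6% at Hoxd1 and 80.0% at Hoxa13, against 55.6% at Hoxd12 and 46.4% at Hoxa2. The Hoxa2 stretch also held a PBX-HOX and a MEIS match, and the other 3 held none of the 6 motifs.

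The lists themselves differed in ways that touch the clusters. Peaks were called separately in each sample, the number of reads behind them is unknown here, and the −log10 p and the width of a peak both grow with depth. At rank 20000 of its list a peak had a −log10 p of 26.4 (SOX2-ON), 21.2 (SOX2-OFF) and 10.6 (CEpiLC), so levels were compared between lists by rank only. Chromosome 6, which holds Hoxa, had 3.12 and 3.29 times the median peak density of 16 other autosomes in SOX2-ON and SOX2-OFF and 0.930 times in CEpiLC. Chromosome 11, which holds Hoxb, had 1.45, 1.49 and 3.98 times that density in SOX2-ON, SOX2-OFF and CEpiLC. Chromosomes 15 and 2, which hold Hoxc and Hoxd, lay between 0.987 and 1.18 times in every list. Cell line and chromosome excess cannot be told apart for Hoxa and Hoxb, so values within the chromosome and values for Hoxc and Hoxd alone are given beside the results.

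All 38 Hox genes had a peak within 1 kb of an annotated start in each of the 3 lists. Over all coding genes the share was 74.9% (SOX2-ON), 75.8% (SOX2-OFF) and 76.3% (CEpiLC). Among peaks with a −log10 q of at least 5, 33, 35 and 29 Hox genes kept one, against 68.5%, 69.1% and 66.2% of coding genes. Hoxa2 and Hoxa6 lacked such a peak in all 3 lists. Neighbouring genes could share a peak, so the 38 genes rested on 36 peaks in SOX2-ON and 35 in each of the other two. Hoxc5 and Hoxc10 were served by 1 peak in every list, as were Hoxd3 and Hoxd4, because annotated starts of the paired genes lie close together. With the 5′-most start of the principal transcript only, 35, 35 and 36 genes kept a peak, and Hoxa9 and Hoxb8 lacked one in all 3 lists and Hoxb3 in both SOX2-ON and SOX2-OFF.

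Hox promoters were open in wide peaks of moderate strength. Each gene was given a promoter percentile, the rank of its highest promoter −log10 p among all coding genes of the list. The median promoter percentile of the 38 genes was 39.2 in SOX2-ON, with a range of 29.1 to 81.4. It was 37.8 in SOX2-OFF, from 29.9 to 71.3, and 37.3 for CEpiLC, from 27.0 to 66.1. Coding genes with a promoter peak had medians of 62.5, 62.1 and 61.9. The fold enrichment of the peak over local background told the same order, with Hox medians of 2.38, 2.08 and 1.92 against 4.06, 3.22 and 2.79. Width went the other way, with median Hox promoter peaks of 1800, 2031 and 1884 bp against 1317, 1425 and 1358 bp. Peaks of 2 kb or more served 23.7%, 55.3% and 47.4% of Hox genes, against 11%, 16.9% and 15.5% of coding genes with a peak. Among all peaks of a list, of which most are away from promoters, Hox promoter peaks sat high, with median percentiles of 83.8, 85.1 and 83.6.

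**Figure D1:**
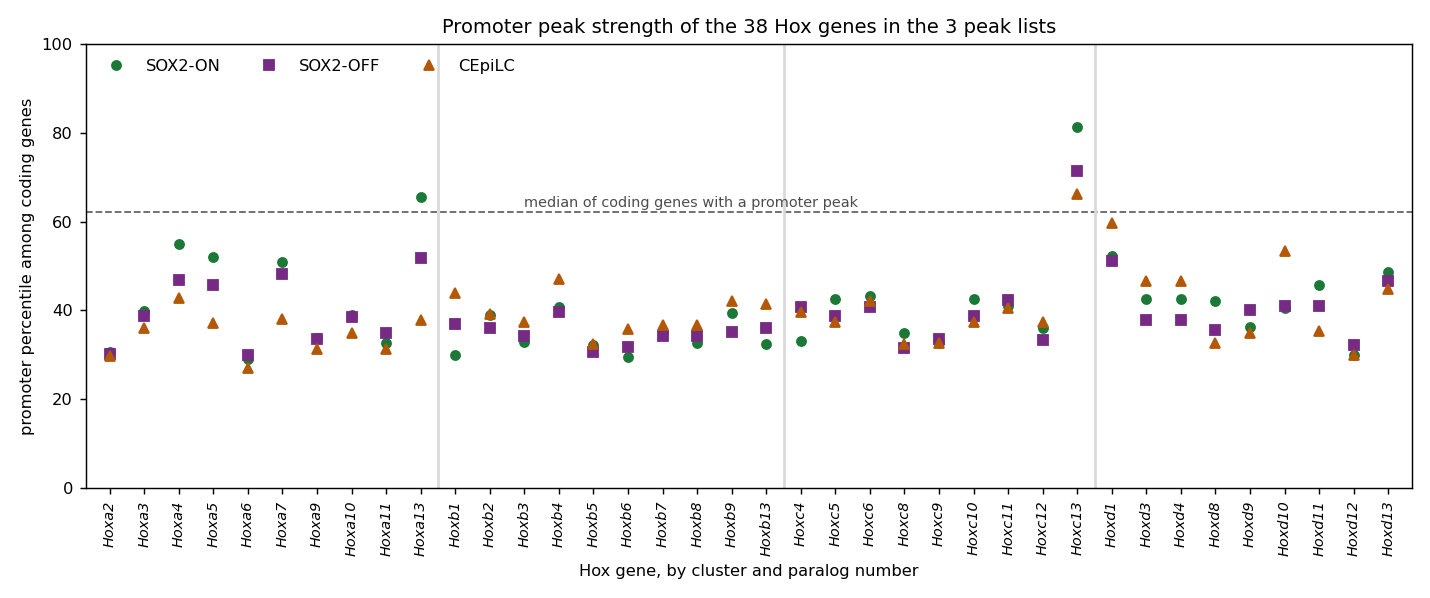
Promoter percentile (0 to 100, rank among all coding genes of a list) of each of the 38 Hox genes, ordered by cluster and paralog number, with 1 marker for each of SOX2-ON, SOX2-OFF and CEpiLC and the dashed line at the median of coding genes with a promoter peak. Hoxc13 stands above the line in all 3 lists, Hoxa13 reaches it in SOX2-ON only, and the other genes lie under it in every list.

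In the Hoxa cluster the posterior gene Hoxa13, which patterns limb ends and the hindgut and genital region, had the strongest promoter by mean rank over the 3 lists and Hoxa6 the weakest. The promoter percentile of Hoxa13 (ENSMUSG00000038203, chr6:52257694-52260880) was 65.6 (SOX2-ON), 51.8 (SOX2-OFF) and 37.8 (CEpiLC). Its −log10 p was 125, 53.2 and 10.3 and its fold enrichment 3.48, 2.34 and 2.05 in the same order, while the peak was 1953, 2280 and 2472 bp wide. SOX2-ON was thus the highest and CEpiLC the lowest in rank, with the widest peak in the sample of lowest rank. Hoxa6 had promoter percentiles of 29.1, 29.9 and 27.0, close to those of Hoxa2, a patterning gene of the hindbrain, at 30.7, 30.1 and 29.7. Both were low in every sample, though the Hoxa2 peak was 1949, 2579 and 2470 bp wide and that of Hoxa6 only 311, 535 and 448 bp. By mean, the genes next to Hoxa13 were Hoxa4 at 55.0, 46.9 and 42.8, Hoxa5 at 51.9, 45.8 and 37.2 and Hoxa7 at 50.9, 48.1 and 38, each highest in SOX2-ON and lowest in CEpiLC. In CEpiLC Hoxa4 and Hoxa7 ranked above Hoxa13. The other 4 Hoxa genes lay between 31.3 and 39.8 in all lists.

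In the Hoxb cluster promoters were evenly weak. Hoxb4, an anterior gene also known for its effect on blood progenitors, was the highest, with promoter percentiles of 40.7 (SOX2-ON), 39.6 (SOX2-OFF) and 47.1 (CEpiLC). The lowest by mean was Hoxb5 at 32.2, 30.7 and 32.4, and Hoxb6 was at 29.4, 31.7 and 35.7. CEpiLC was the highest of the 3 samples for each of these genes. Hoxb1, the 3′-most gene of the cluster and an early gene of the primitive streak and hindbrain, had promoter percentiles of 30.0, 37.0 and 43.8, the widest gap within Hoxb. Its −log10 p was 5.01 (SOX2-ON), 19.8 (SOX2-OFF) and 14.4 (CEpiLC). Hoxb7 and Hoxb8 shared a single peak of 4249 bp in SOX2-OFF and of 4491 bp in CEpiLC, the widest peaks of the 4 windows in those lists, while in SOX2-ON Hoxb7 had a peak of 3071 bp and Hoxb8 one of 465 bp.

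In the Hoxc cluster Hoxc13, a posterior gene required for hair and nails, stood apart from the rest. Its promoter percentile was 81.4 (SOX2-ON), 71.3 (SOX2-OFF) and 66.1 (CEpiLC). No other Hox gene was above the median of coding genes with a promoter peak in all 3 lists. The −log10 p was 220, 101 and 27.9, and its peak was the strongest of the 4 windows in each list. Hoxc8 and Hoxc9 were the lowest of Hoxc by mean, at 34.9, 31.6 and 32.4 and at 32.6, 33.6 and 32.7. Hoxc4 was lower in SOX2-ON than in the other samples, at 33.1 against 40.7 in SOX2-OFF and 39.5 in CEpiLC.

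In the Hoxd cluster the 3′-most gene was the highest in every list. Hoxd1 had promoter percentiles of 52.3 (SOX2-ON), 51.2 (SOX2-OFF) and 59.6 (CEpiLC), in peaks of 1336, 1653 and 1555 bp. Hoxd12, a limb gene, was the lowest at 30.0, 32.1 and 29.9. Hoxd13, the limb and digit gene at the 5′ end, was at 48.7, 46.7 and 44.7. Hoxd10 was at 40.6, 40.9 and 53.4, higher in CEpiLC than in both samples of the engineered line, and its neighbour Hoxd11 went the other way at 45.7, 40.9 and 35.3.

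A gene was called different between 2 lists where its promoter percentile differed by at least 20 points, a rule of size and not a test. Over all coding genes with a promoter peak in either list, 0.757% were called higher and 0.710% lower in SOX2-ON than in SOX2-OFF, 3.86% higher and 4.18% lower in SOX2-ON than in CEpiLC, and 1.43% higher and 1.50% lower in SOX2-OFF than in CEpiLC. Among the Hox genes there was 1 call, Hoxa13, higher in SOX2-ON than in CEpiLC by 27.8 points. The 38 genes gave few calls, as did coding genes at large, but the scale left little room for a fall. Coding genes with a promoter peak began at 25.1 (SOX2-ON), 24.3 (SOX2-OFF) and 23.7 (CEpiLC), and the Hox medians were 39.2, 37.8 and 37.3. A gene at the Hox median that kept its peak could therefore not fall by 20 points. The few calls do not show that Hox promoters differed little. Ranked among all peaks of a list there were 6 calls, given at the end, and Hoxa13 was not among them. Ranked within chromosome 6 the difference of Hoxa13 was 21.3 points, and ranked by fold enrichment it was 15.2 points, under the threshold. The next largest differences lay outside the threshold, at 15.3 points for Hoxc13 and 14.7 for Hoxa5, both higher in SOX2-ON than in CEpiLC. Hoxa13 followed, higher in SOX2-OFF than in CEpiLC by 14.0 points and higher in SOX2-ON than in SOX2-OFF by 13.8, and then Hoxb1, at -13.8 for SOX2-ON minus CEpiLC.

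In 2 clusters the difference to CEpiLC had a single sign. All 10 Hoxa genes ranked higher in SOX2-ON than in CEpiLC, with a median difference of 3.97 points, and all 10 ranked higher in SOX2-OFF, with a median of 3.60. All 10 Hoxb genes ranked lower in SOX2-ON and in SOX2-OFF than in CEpiLC, with medians of -4.30 and -3.54 points. Coding genes of chromosome 6 at large shifted by medians of 4.67 and 7.24 points and those of chromosome 11 by -7.89 and -9.62 points. Both comparisons share the CEpiLC sample. Ranked within the chromosome, 7 of 10 Hoxa genes and 4 of 10 Hoxb genes were higher in SOX2-ON than in CEpiLC, and the same counts were found for SOX2-OFF. The Hoxa medians were then 2.20 and 0.944 points (coding genes of chromosome 6: 0.629 and 0.809) and the Hoxb medians -1.63 and -0.793 points (coding genes of chromosome 11: -0.305 and -0.122). Hoxa5 and Hoxa7 kept differences of 12.9 and 10.3 points between SOX2-ON and CEpiLC within the chromosome. In Hoxc and Hoxd, 6 of 9 and 5 of 9 genes were higher in SOX2-ON than in CEpiLC, with medians of 1.23 and 0.128 points.

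By paralog group, anterior genes tended to rank lower in SOX2-ON than in CEpiLC, and central and posterior genes higher. The counts were 8 of 11 anterior genes lower, with a median of -3.97 points, 7 of 11 central genes higher, with a median of 2.12, and 11 of 16 posterior genes higher, with a median of 1.45. The genes are not independent. Hoxd3 and Hoxd4 share a peak that counts for both, at -3.97 points, and that of Hoxc5 and Hoxc10 counts as central and as posterior. Signs also followed cluster, as the anterior genes that were higher were all Hoxa and the central genes that were lower all Hoxb. Paralog group and chromosome were not told apart. Within the chromosome the counts were 8 of 11 lower, 8 of 11 higher and 10 of 16 higher. Over all coding genes 49.4% were higher in SOX2-ON, with a median of -0.119 points. Between SOX2-ON and SOX2-OFF the anterior genes showed no such lean, with 8 of 11 higher in SOX2-ON and a median of 1.10 points. These medians are smaller than the 20 points of a call, and no replicate gives their error.

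The windows as a whole were dense in open chromatin. Peaks covered 17.1% (SOX2-ON), 20.5% (SOX2-OFF) and 22.0% (CEpiLC) of the 4 windows, against 3.75%, 4.54% and 3.44% of the genome. The Hoxa window was covered to 20.7%, 24.5% and 22.5%, Hoxb to 17.1%, 19.3% and 25.2%, Hoxc to 15.3%, 20.5% and 21.0%, and Hoxd to 15.4%, 18.3% and 18.3%. SOX2-ON had the lowest coverage in every cluster. Among peaks with a −log10 q of at least 5 the order changed, as CEpiLC was the lowest in Hoxa, at 11.5% against 15.2% in SOX2-ON, and in Hoxc, at 12.2% against 12.6%. Chromosome 6 as a whole was covered to 9.47% (SOX2-ON), 12.8% (SOX2-OFF) and 2.97% (CEpiLC), and chromosome 11 to 5.00%, 5.91% and 13%. Chromosome 15 was covered to 3.24%, 3.82% and 3.30%, and chromosome 2 to 3.71%, 4.36% and 3.75%. The high Hoxb coverage in CEpiLC thus lay on a chromosome of high coverage in that list, and its part in the difference was not tested. Between the first and the last gene the coverage in SOX2-ON was 28.0% for Hoxa, 20.3% for Hoxb, 22.0% for Hoxc and 25.0% for Hoxd.

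Of the strongest 20000 peaks of a list, 22 (SOX2-ON), 40 (SOX2-OFF) and 38 (CEpiLC) lay in the windows. They were 15.0% (10.1 to 21.6, Wilson 95% interval), 28.8% (21.9 to 36.8) and 21.7% (16.2 to 28.4) of the window peaks, against 15.4%, 15.2% and 15.3% of the whole lists, a larger share in SOX2-OFF and CEpiLC and a like share in SOX2-ON. Within the gene spans, the strongest Hoxc peak covered the Hoxc13 promoter and the strongest Hoxd peak the Hoxd1 promoter in every list. The strongest Hoxa peak covered the Hoxa13 promoter in SOX2-ON and SOX2-OFF, with a −log10 p of 125 and 53.2, and in CEpiLC it was chr6:52172328-52173003, over exons of Hoxa3 transcripts, at 13.9. The strongest Hoxb peak was chr11:96202750-96204281 in SOX2-ON at 33.7, the Hoxb4 promoter in SOX2-OFF at 25.9, and chr11:96311583-96312384 in CEpiLC at 17.4. The widest peaks of Hoxa were 2622 bp in SOX2-ON, 3339 bp over the Hoxa5 promoter in SOX2-OFF and 2596 bp in CEpiLC. Those of Hoxc were 3024, 3400 and 3053 bp, over the promoters of Hoxc11, Hoxc12 and Hoxc4, and those of Hoxd were 2667, 3063 and 4230 bp, over Hoxd11, Hoxd12 and Hoxd11.

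**Figure D2:**
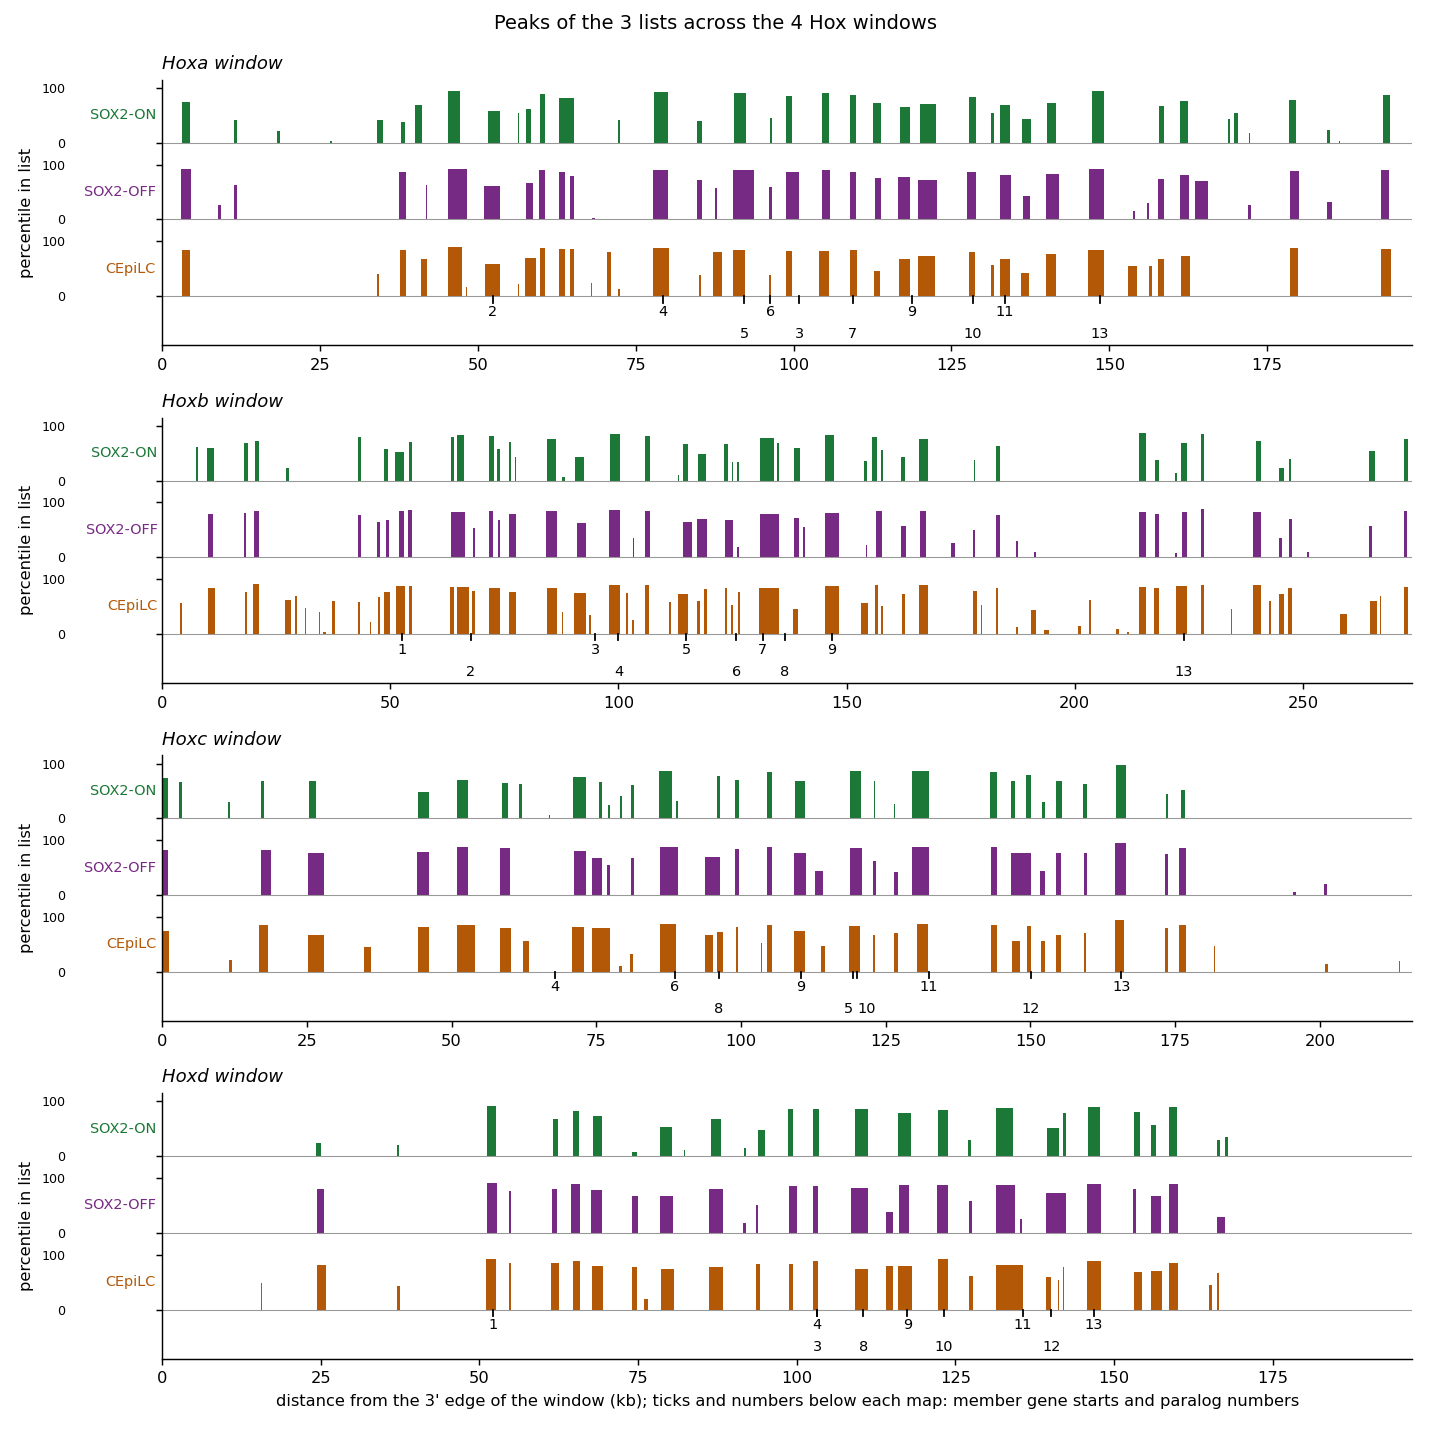
Peaks of the 3 lists along the 4 Hox windows, drawn as distance from the 3′ edge of the window in kb, with bar width as peak width and bar height as the percentile of the peak by −log10 p within its list (0 to 100). Ticks with paralog numbers mark the annotated gene starts, and most tall bars recur in all 3 rows, with more short bars in the Hoxb window of CEpiLC.

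Peaks of the 3 lists were merged into 185 regions, of which 111, or 60.0% (Wilson 95% interval 52.8 to 66.8), were covered by all 3 lists, against 27.0% over the genome. Intervals cover counting error only. In Hoxc and Hoxd alone the share was 69.6% (57.9 to 79.2), and over chromosomes 15 and 2 it was 32.4% and 30.6%. Regions covered by 2 lists were few, with 4 in SOX2-ON and SOX2-OFF (2.16%, genome 10.5%), 10 in SOX2-ON and CEpiLC (5.41%, genome 3.28%) and 12 in SOX2-OFF and CEpiLC (6.49%, genome 6.92%). SOX2-ON alone covered 9 regions (4.86%, genome 16.9%), SOX2-OFF alone 7 (3.78%, genome 15.1%) and CEpiLC alone 32 (17.3%, genome 20.3%). Of those 32, 21 lay in Hoxb, where they were 30.9% of regions, against 59.9% of regions on chromosome 11 as a whole. The Hoxa window, by contrast, had 3 regions in SOX2-ON and SOX2-OFF only, 6.25% of its regions, while chromosome 6 had 27.8%.

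**Figure D3:**
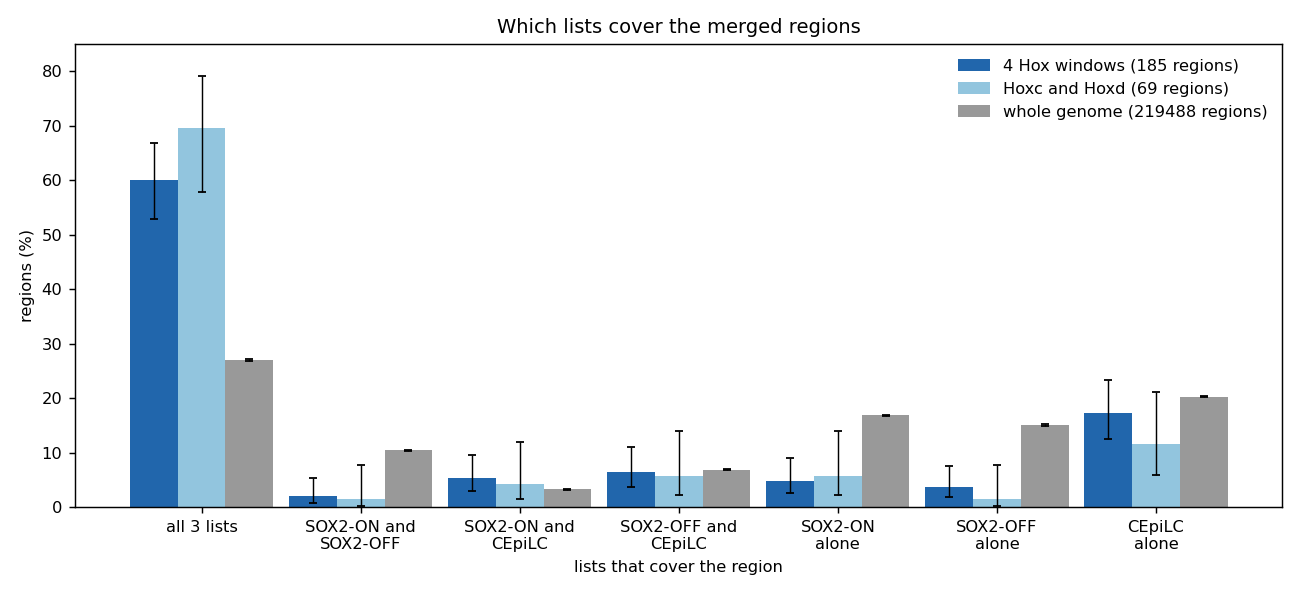
Share of regions (%) in each presence class, by which of the 3 lists cover them, for the 4 Hox windows, for Hoxc and Hoxd alone and for the whole genome, with Wilson 95% intervals as error bars. Regions in all 3 lists make up 60.0% in the Hox windows and 27.0% in the genome, and regions in SOX2-ON alone 4.86% and 16.9%.

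Read from each list, a smaller share of Hox peaks than of all peaks was missing elsewhere. A peak was counted as missing where the other list covered under 10% of it. Of the SOX2-ON peaks 15.0% (10.1 to 21.6) were missing from SOX2-OFF and 10.2% (6.28 to 16.2) from CEpiLC, against 35.0% and 48.8% of the whole list. Of the SOX2-OFF peaks 15.8% (10.7 to 22.8) were missing from SOX2-ON and 7.91% (4.48 to 13.6) from CEpiLC, against 38% and 44.3%. Of the CEpiLC peaks 26.3% (20.3 to 33.3) were missing from SOX2-ON and 24.0% (18.3 to 30.8) from SOX2-OFF, against 48.4% and 40.9%. By cluster, the CEpiLC peaks missing from SOX2-ON were 7 of 40 in Hoxa (17.5%, chromosome 6 22.5%), 26 of 68 in Hoxb (38.2%, chromosome 11 73.9%), 8 of 37 in Hoxc (21.6%, chromosome 15 45.0%) and 5 of 30 in Hoxd (16.7%, chromosome 2 47.6%).

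The strongest of the regions that a single list or a pair of lists covered are given next. The Haglr intron region near Hoxd1, printed above, had a −log10 p of 11.2 in SOX2-OFF and 11 in CEpiLC, the 76.5th and 85.1th percentile of peaks in those lists, and no peak in SOX2-ON. In the same class, chr6:52199700-52201073, over exons of Hoxa3 transcripts 4200 bp from the start of Hoxa5, had 5.33 and 8.12, and chr11:96349710-96350313, 513 bp from the start of Hoxb2 in an intron of Hoxb3os, had 4.79 and 7.27. The strongest of the class of SOX2-ON and CEpiLC were 2 Hoxa regions, chr6:52168704-52168921 with 5.26 and 3.30 and chr6:52243672-52244218, in an intron of Hoxa11, with 5.22 and 4.18. The strongest of the class of SOX2-ON and SOX2-OFF was chr6:52123726-52124198 in the 3′ flank of Hoxa, at 4.04 and 6.06.

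Regions of SOX2-ON alone were led by chr15:103083477-103083979, printed above, at 8.04, and by chr15:103024644-103025130 in an intron of Hoxc4 at 6.94. Regions of SOX2-OFF alone were weaker, led by chr11:96277487-96277719, intergenic, at 5.05. Regions of CEpiLC alone were led by chr6:52182867-52183446, over exons of Hoxa3 transcripts, at 8.10 and by chr11:96316269-96316669, printed above, at 6.10. Each of these had a peak in its own list and none in the others, and with a single sample a peak just under the threshold of the caller could read as absent. Among peaks with a −log10 q of at least 5, 2.06% (2 of 97) of the SOX2-OFF peaks were missing from SOX2-ON, against 7.82% of the whole list. For CEpiLC the share was 6.85% (5 of 73), against 4.38%, so the share of missing Hox peaks was no longer the smaller one there.

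The 111 regions covered by all 3 lists were compared by rank, using the percentile by −log10 p among all peaks of the list. Their medians were 70.7 (SOX2-ON), 80.6 (SOX2-OFF) and 81.9 (CEpiLC), against 70.9, 75.7 and 75.4 over 59284 such regions in the genome. SOX2-ON was lower than SOX2-OFF in 84 of 111 regions (genome 37588 of 59284), with a median difference of -5.87 points (genome -1.82). It was lower than CEpiLC in 76 (genome 34702), with a median of -5.91 (genome -1.59). The shares higher in SOX2-ON were 24.3% and 31.5%, against 36.6% and 41.5% of the genome's regions. SOX2-OFF differed from CEpiLC by a median of -0.431 points (genome 0.308). In Hoxc and Hoxd alone the medians were -6.21, -5.51 and -0.164. Ranked within the chromosome, the medians of all 111 regions were -5.32, -10.2 and -3.76 points (genome -1.82, -2.46 and -0.344). By −log10 p, Hox regions were thus lower in SOX2-ON than in the other 2 samples by a larger median than regions at large.

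By the rule of 20 points, 13 Hox regions (11.7%) were lower in SOX2-ON than in SOX2-OFF, against 13.6% of the genome's regions, and 0 were higher, against 6.31%. Against CEpiLC, 24 (21.6%) were lower in SOX2-ON, against 15.1%, and 3 were higher, against 10.1%. SOX2-OFF was lower than CEpiLC in 7 (6.31%), against 7.42%, and higher in 5, against 10.7%. The share called lower in SOX2-ON than in SOX2-OFF was therefore close to the background, with no region called higher. Ranked by fold enrichment, the medians were -2.88, 0.662 and 1.62 points (genome -1.70, -1.30 and 0.260), so both median differences to CEpiLC changed sign. By that ranking 14 regions (12.6%, genome 13.9%) were lower and 6 (5.41%, genome 7.21%) higher in SOX2-ON than in SOX2-OFF, a balance close to that of the genome. Against CEpiLC 14 (12.6%, genome 15.3%) were lower and 16 (14.4%, genome 11.7%) higher in SOX2-ON. Width moved with the ranks, as the median covered length of the 111 regions was 1133 bp (SOX2-ON), 1449 bp (SOX2-OFF) and 1421 bp (CEpiLC) (genome 1006, 1159 and 902 bp), and its part in the difference was not tested. All 13 regions called lower than in SOX2-OFF were called by fold enrichment too, as were 14 of the 24 called lower than in CEpiLC. The shares called lower by both rankings were 11.7% and 12.6%, against 12.5% and 12.9% of the genome's regions.

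**Figure D4:**
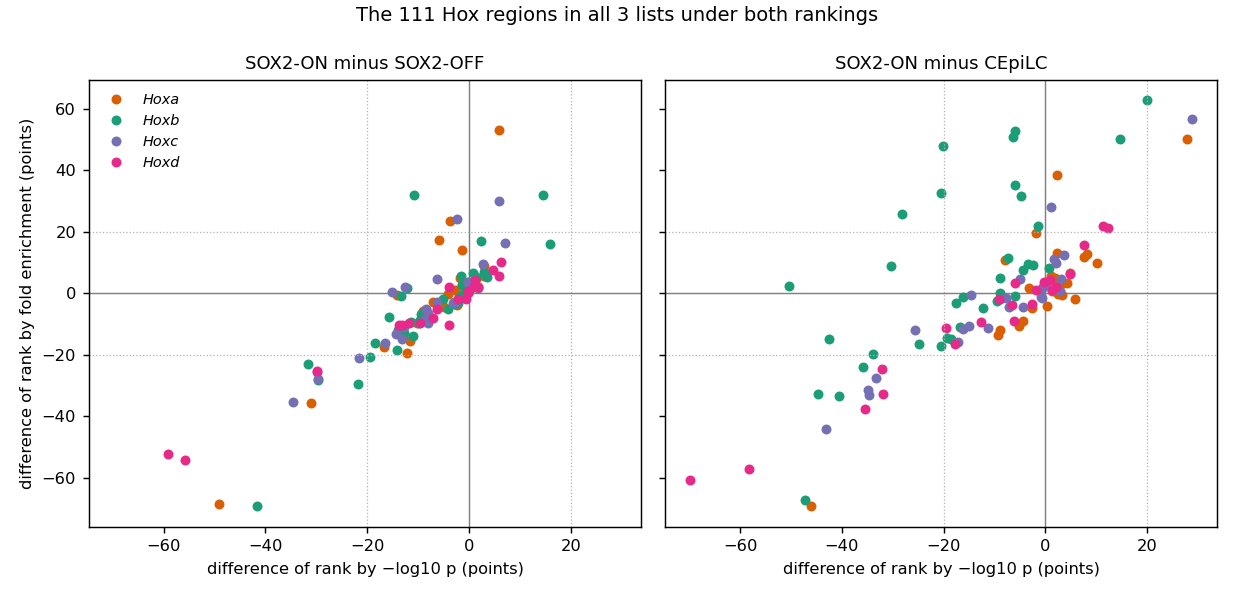
Difference in percentile between samples for the 111 regions in all 3 lists, ranked by −log10 p (x axis, percentile points) and by fold enrichment (y axis, percentile points), coloured by cluster, with SOX2-ON minus SOX2-OFF on the left, SOX2-ON minus CEpiLC on the right and dotted lines at 20 points. The 13 regions at least 20 points lower in SOX2-ON than in SOX2-OFF on the x axis are also at least 20 points lower on the y axis.

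Regions ranked far lower in SOX2-ON than in the other samples lay in all 4 clusters. The Hoxd3 intron region, chr2:74740184-74741086, which lies at an alternative start of Hoxd3, was at the 7.37th percentile of peaks in SOX2-ON, the 66.6th in SOX2-OFF and the 77.2th in CEpiLC, with a −log10 p of 2.90, 7.03 and 6.88. The region in the 3′ flank of Hoxd, chr2:74789286-74790852, was at 23.7, 79.5 and 81.9. Both were in the lower part of the SOX2-ON list and in the upper part of the other lists. In the 3′ flank of Hoxa, chr6:52149991-52151000, intergenic, was at 37.8, 86.9 and 83.8. In Hoxb, chr11:96199708-96200854, over exons of Gm27605 and 5965 bp from the start of Hoxb13, was at 36.9, 78.5 and 84.2, and the region over the Hoxb1 promoter, chr11:96365133-96367129, was at 52.5, 84.2 and 88.2. In Hoxc, chr15:102909999-102911204, intergenic and 10501 bp from the start of Hoxc13, was at 51.0, 85.5 and 85.5. Each of these 6 was more than 30 points lower in SOX2-ON than in both other samples, and SOX2-OFF and CEpiLC lay within 11 points of each other.

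Against CEpiLC, the 3 regions called higher in SOX2-ON were the following. A region over Hoxa9 exons, chr6:52225044-52226259, was at 73.4 (SOX2-ON), 75.2 (SOX2-OFF) and 45.6 (CEpiLC), and one in an intron of Hoxc6, chr15:103005328-103006034, was at 61.2, 67.5 and 32.3. The last, intergenic in the 3′ flank of Hoxb, chr11:96374604-96375269, was at 79.0, 77.6 and 58.9. SOX2-ON and SOX2-OFF lay within 7 points of each other in all 3. In the Hoxa3 intron, chr6:52197086-52197950 was at 40.1, 71.2 and 37.9, the highest in SOX2-OFF and one of the 13 regions called lower in SOX2-ON. Regions between the first and last gene were then grouped by the paralog number of the gene with the nearest annotated start. The outermost start was used, which for some genes lies out of order, as for Hoxa3, between Hoxa6 and Hoxa7. Region chr6:52216427-52218213 at a Hoxa7 promoter thus counted as anterior, so these groups are mixed. By −log10 p, anterior regions were lower in SOX2-ON than in SOX2-OFF in 27 of 31 and those of the 3′ flanks in 11 of 14. Central regions were lower in 9 of 15, posterior regions in 24 of 35 and those of the 5′ flanks in 13 of 16. The genome's shared regions were lower in SOX2-ON in 37588 of 59284. Central and posterior regions lay closest to that share.

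**Figure D5:**
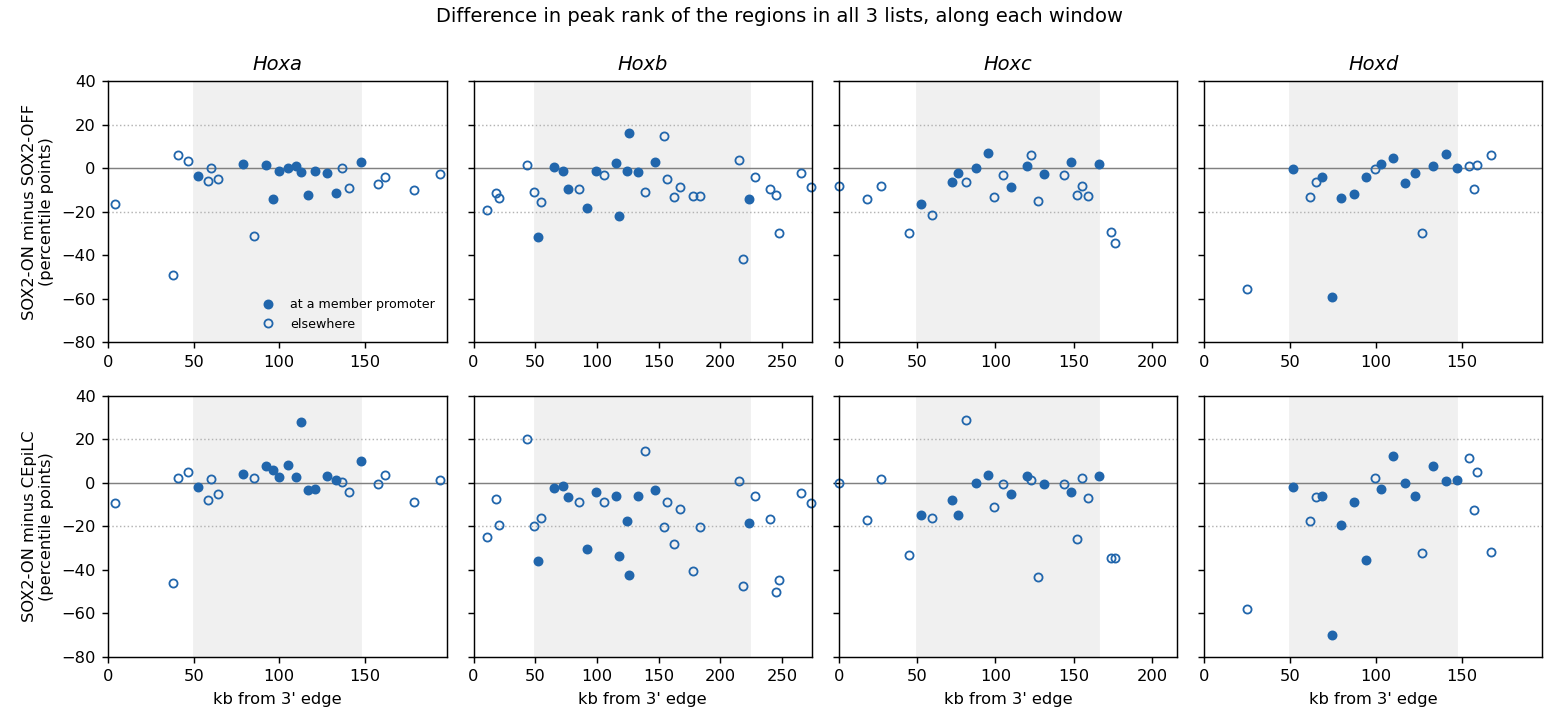
Difference in percentile by −log10 p for each region in all 3 lists (y axis, percentile points, SOX2-ON minus SOX2-OFF and SOX2-ON minus CEpiLC), along the 4 Hox windows (x axis, kb from the 3′ edge), with filled points at a Hox promoter, open points elsewhere and the span of the genes shaded. Most points lie at or under 0, and the lowest values are -59.2 and -69.8, both in Hoxd.

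Hox regions were rich in CpG also away from promoters. The 59 shared regions away from coding promoters had a median observed to expected CpG ratio of 0.501 and 55.0% GC, against 0.216 and 50.5% over 40999 such regions in the genome. At coding promoters the ratio was 0.603 in 52 Hox regions and 0.676 in 18285 regions. In the central 200 bp of the 111 shared regions a CDX/HOX match was found in 12.6% (7.66 to 20.1), against 6.07% of all shared regions, and a MEIS match in 5.41% (2.50 to 11.3), against 13.5%. Shares were alike for SOX, at 11.7% (6.97 to 19.0) against 10.5%, and for TCF/LEF, at 2.70% (0.923 to 7.65) against 2.87%. PBX-HOX and T-box matches were found in 1 region each, 0.901%, against 1.59% and 0.854%. A match to a single CTCF consensus was found in 0 of 111 regions (0 to 3.35%), against 1.42%, a share inside that interval. The shared Hox regions had a median width of 1741 bp, and matches outside the central 200 bp were not searched. A match to the retinoic acid DR5 element was in 1 shared region, chr6:52152537-52154371 in the 3′ flank of Hoxa, at the 69.2th, 63.4th and 67.0th percentile, and in 1 region of CEpiLC alone, chr11:96372596-96372801 in the 3′ flank of Hoxb, with a −log10 p of 3.30.

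The clusters also carry microRNA genes, whose mature products act on Hox transcripts. Mature sequences from RefSeq are printed with the seed, bases 2 to 8, in capitals. miR-10a, in Hoxb, and miR-10b, in Hoxd, share their seed.
mmu-miR-10a-5p: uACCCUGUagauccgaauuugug
mmu-miR-10b-5p: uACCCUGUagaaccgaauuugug
mmu-miR-196a-5p: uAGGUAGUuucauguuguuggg
Within 1 kb of the Mir10a hairpin (chr11:96317165-96317274) the best peak had a −log10 p of 28.4 (SOX2-ON), 25.9 (SOX2-OFF) and 16.6 (CEpiLC), which is the peak of the Hoxb4 promoter. CEpiLC had 2 peaks there, 1 of them the region of CEpiLC alone printed above. Near Mir10b (chr2:74726070-74726137) the best peak had 8.72, 14.1 and 6.97. Mir196a-2 (chr15:102973350-102973434) had no peak within 1 kb in SOX2-ON and 1 in each of the others, at 4.02 and 3.83, and Mir196a-1 (chr11:96265164-96265265) had none in SOX2-OFF and 3.76 and 4.24 in the other two. The hairpins of Mir196b and Mir615 lay inside a peak in all 3 lists.

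Genes that act on the clusters or with them were set beside them. All 11 upstream factors had a promoter peak in each list, with median promoter percentiles of 39.9, 46.4 and 46.5 in SOX2-ON, SOX2-OFF and CEpiLC. Of these, 2 were called, both between SOX2-ON and CEpiLC. Rarb, a retinoic acid receptor gene, was at 38.6, 50.4 and 65.5, a difference of -27.0 points from CEpiLC to SOX2-ON, and Rarg, another, was at 73.8, 57.9 and 50.6, higher by 23.2 points. Cdx2, whose product binds Hox clusters, was at 39.9, 45.5 and 56.8, Cdx1 at 38.4, 46.4 and 52.1, and Cdx4 at 30.5, 35.2 and 33.0. None of the 3 passed 20 points, and each was the lowest in SOX2-ON. The 7 MEIS and PBX cofactors, which bind DNA with HOX proteins, and the neighbouring genes Evx1 and Evx2 gave 0 calls. Of 7 chromatin regulators, Kmt2a, a histone H3K4 methyltransferase that maintains Hox expression, was at 80.8, 66.1 and 52.8, and Ctcf, the insulator factor, at 99.2, 97.5 and 77.3. Kmt2a was called higher in SOX2-ON than in CEpiLC, and Ctcf was called higher in both samples of the engineered line.

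The label of caudal epiblast was checked against 8 markers, which all had a promoter peak in all 3 lists, with median percentiles of 39.5, 42.0 and 43.5. Of these, 6 were the lowest in SOX2-ON, T among them at 39.1, 51.4 and 46.5, whereas Wnt3a at 45.2, 37.6 and 39.3 and Fgf8 at 41.3, 38.5 and 35.4 were the highest there, and none was called. All 6 naive pluripotency markers had one too, with medians of 63.6, 55.4 and 51.0, and Klf4 was called higher in SOX2-ON than in CEpiLC, at 64.9, 48.0 and 42.1. Tfcp2l1 went the other way at 62.3, 74.7 and 77.4, Klf2 was the highest in SOX2-OFF at 72.0, 75.2 and 67.1, and the other 3 were the highest in SOX2-ON. Of 6 markers of feeder fibroblasts, on which the stem cells had been kept, 5 had a promoter peak in every list, with values up to 63.6, 57.2 and 59.4, while Postn had none in any list. The part of other cell types in the Hox values was not tested.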

How the data were processed

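ATAC-seq was measured in 3 samples (SOX2-ON, SOX2-OFF, CEpiLC), grouped by their labels, with 1 per group. With nf-core/atacseq, the authors ran Trim Galore, mapped with BWA to mm10, dropped mitochondrial reads and called broad peaks per sample with MACS2 (the MACS2 version is not given in the sources used here). The deposited fold enrichment, a ratio of pileup to local background, and the deposited −log10 p and −log10 q are the authors' values per peak. The deposited score was not used. Broad calling joins neighbouring sites, so widths are approximate and grow with depth, which is unknown here.

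Genes and starts came from GENCODE M21, with all 38 symbols matched. A promoter peak lay within 1 kb of any start, and the highest −log10 p was ranked among 21938 coding genes (without a peak: lowest, tied). Overlapping peaks of the 3 lists were merged into regions. A shared peak was covered over at least 10% of its length. A call was a difference of at least 20 points. Sequence and motifs were read from GRCm38.p6, and promoter and microRNA sequences from RefSeq. Genes named with values were the highest and lowest of each cluster, those called and those the text turns on, the last chosen after their values were seen. The Hox genes and all lists were chosen with earlier results of these data known. Python 3.11.15, numpy 2.4.6 and pandas 2.3.3 were used, and the ranking was tested on simulated data. Alternatives were other promoter windows, thresholds, rankings, flanks and overlaps. Nothing was compared by a test, because 1 sample per group leaves no spread.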

Additional observations from a re-analysis of the deposited data

How the results depend on the processing

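No paired analysis was possible because a group was a single sample. Under the alternatives 64 main values stayed within their counting interval or within 1.5 times and 36 moved beyond it. Of the values for single clusters, genes and medians 36 stayed, 14 moved, 2 fell under the threshold and 2 reversed. Promoter peaks were kept by 33, 35 and 29 genes at a −log10 q of at least 5. The number of promoter calls, 1 as reported, was 0 by fold enrichment or at 30 points, 3 with a promoter window of 0.5 kb, 6 with percentiles among all peaks and 13 at 10 points. Shares over coding genes, all pairs together, were 4.16% as reported, 4.20% at 0.5 kb, 8.24% among all peaks and 26.2% at 10 points. At 0.5 kb Hoxb2 lacked a peak in SOX2-ON and was called lower there than in both others. Among all peaks Hoxb1 and Hoxb6 were lower in SOX2-ON than in both others. Hoxd12 was lower in SOX2-ON than in SOX2-OFF, and Hoxa6 higher in SOX2-OFF than in CEpiLC. At 10 points calls went both ways. Hoxa13 fell to 15.2 points by fold enrichment and 10.1 among all peaks. The share of regions in all 3 lists was 52.4% at a −log10 q of at least 5 (genome 41.0%), 69.8% without flanks, 52.7% with 100 kb flanks and 69.6% in Hoxc and Hoxd. Shares of missing peaks at 50% overlap were 17.0% (SOX2-ON from CEpiLC), 25.2% and 15.1% (SOX2-OFF from SOX2-ON and CEpiLC) and 36.0% (CEpiLC from SOX2-ON). At a −log10 q of at least 5 they were 3.61% and 2.41% for SOX2-ON, 2.06% and 0% for SOX2-OFF and 6.85% and 1.37% for CEpiLC (whole lists 15.6% and 23.6%, 7.82% and 8.88%, 4.38% and 1.80%). Without flanks they were 9.80%, 4.90%, 4.08% and 16.9%, and in Hoxc and Hoxd 3.57%, 19.4% and 16.4%. Coverage at a −log10 q of at least 5 was 12.1% (SOX2-ON), 17.4% (SOX2-OFF) and 12.4% (CEpiLC), with CEpiLC under SOX2-ON in Hoxa and Hoxc. Alternatives for shared regions and the principal start were chosen after seeing the data. Regions lower in SOX2-ON and SOX2-OFF than in CEpiLC were 36.0% and 13.5% within the chromosome (genome 19.2% and 10.2%), with medians of -10.2 and -3.76 points. By fold enrichment 5.41% were higher in SOX2-ON than in SOX2-OFF (genome 7.21%), 14.4% higher and 12.6% lower in SOX2-ON than in CEpiLC (genome 11.7% and 15.3%) and 12.6% higher in SOX2-OFF (genome 12.0%), and the medians to CEpiLC reversed to 0.662 and 1.62. At 10 points 35.1%, 34.2% and 13.5% were lower (genome 26.4%, 27.7% and 15.4%). The cause of these changes was not tested. Unknown depth limits every absent peak.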
